A study of Equus caballus with 37 samples.

Results

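The genes described here are the 150 genes of horse blood whose expression peaked once racing had closed (T3), relative to every other training period. They were chosen by measured values. For each gene the median log2 CPM (counts scaled by library total) was taken per period, and the score was the T3 median minus the highest of the T0, T1 and T2 medians. Of 26991 genes in the count table, 12025 passed the filter on low counts, 9287 of these had a mean log2 CPM of at least 2, and 496 of those had a score of at least 0.5 and an identifier that the study did not print. The 150 highest scores of the 496 define the set.

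The study followed Arabian horses prepared for flat racing, and asked how the blood transcriptome differed between training periods and between trained and untrained animals. The T0 group held 6 libraries of untrained horses, labelled as 2.5 years old except replicate 2, labelled as 3 years old. The trained groups were labelled as 3 years old: T1 held 12 libraries taken in March once the slow canter work was done, T2 held 11 taken in May following the intense gallop work, and T3 held 8 taken in October as racing closed. Mares numbered 2 of 6 in T0, 5 of 12 in T1, 4 of 11 in T2 and 4 of 8 in T3, the others being stallions. Per the study's methods the animals were healthy, came from 1 stud, and were bled from the jugular vein before the day's training. The same 12 trained horses were to be sampled at successive periods. The study removed some samples because their horses were taken out of training, through lameness or poor metabolic performance. The trained groups held 12, 11 and 8 libraries at T1, T2 and T3. The labels do not say which libraries share a horse, so the tests below treat libraries as independent. T0 horses differed from the others in age and at least partly in identity as well as in training. Season differed between the trained periods, and the horses that remained may have differed too. None of these can be told apart from training. The sample titles give no month for T0, so its season was not compared with that of the trained periods.

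Whole blood RNA comes mainly from leukocytes, with platelets and red blood cells adding transcripts of their own. Leukocyte classes leave and enter the circulation with exercise, stress hormones, infection and season, so a gene can rise in blood because its cell type is more frequent or because each cell holds more of its RNA. In these bulk samples fewer cells of a type and less RNA per cell cannot be told apart. The markers of neutrophils, lymphocytes, monocytes, platelets and red cells fixed for this purpose could not be read, since 0 of the table's identifiers were found in the reference gene table at hand, and no cell counts were used here. For the same reason the members are described as a group and a few of them by Ensembl identifier, without symbol, position or sequence.

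Library totals ranged from 3810631 to 14932603 counts, the lowest being T1 replicate 11. T1 replicates 1, 2, 3, 4 and 11 stood apart, with TMM scaling factors of 0.41 to 0.70, against 0.92 or more in the other 32 libraries. These factors rescale libraries in which a few abundant transcripts take up much of the counts. The T3 libraries held 10505578 to 14932603 counts, and 106 of the 150 members had at least 6 counts in every library.

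The members were moderately expressed genes, whose mean log2 CPM ran from 2.03 to 9.23 with a median of 4.35, compared with 4.82 for all 9287 genes above the level floor. The score ran from 0.78 to 3.17 on the log2 scale, with a median of 0.95. By period, the median T3 excess on the log2 scale was 1.05 over T0, 1.60 over T1 and 1.23 over T2. The last 3 members inside the limit had scores of 0.7813, 0.7805 and 0.7778, and the first 3 genes outside had 0.7757, 0.7754 and 0.7734, so the limit of 150 does not mark a break in the values.

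Summed over the 150 members, expression was 13335, 16716 and 19599 CPM (lowest, median and highest library) in T3. The corresponding sums were 6148, 7798 and 10115 CPM in T0, 3078, 6237 and 9778 CPM in T1, and 4026, 6492 and 12667 CPM in T2. Every T3 library lay above every other library, a separation that the choice of members fixed. The 10 most abundant members made up 34.9% of the summed mean T3 expression and the most abundant single gene 7.11%, so the sum was not carried by 1 transcript. At T3, 43 members averaged 100 CPM or more and 5 averaged under 10 CPM.

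Because the sum is weighted towards abundant genes, a level was also computed in which each member counts equally, as the mean over members of the difference between a library's log2 CPM and that gene's mean over the 37 libraries. In T3 replicates 1 to 8 the level was 0.95, 0.78, 1.25, 1.35, 0.88, 1.27, 1.09 and 1.34. In T0 it was 0.37, 0.41, -0.09, -0.29, -0.16 and 0.17 for replicates 1 to 6. The T1 libraries ran from -1.73 through a median of -0.46 to 0.23, and the T2 libraries from -1.12 through -0.19 to 0.72. The highest library outside T3 was T2 replicate 5, in which 91 members exceeded their lowest T3 value and 34 exceeded their T3 median. T0 was the most even of the other groups, and its 2 highest libraries, replicates 1 and 2, were also the 2 with the fewest counts of that group (10416083 and 10611594).

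**Figure D1:**
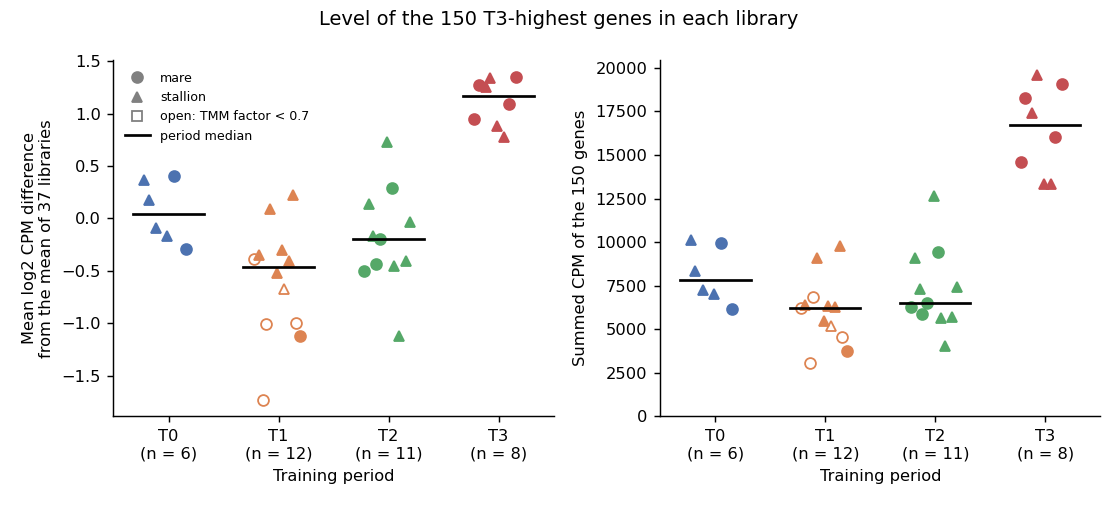
Level of the 150 T3-highest genes in each of 37 libraries by training period, as the mean log2 CPM difference from the all-library mean (left) and as summed CPM (right). Circles are mares, triangles stallions, open symbols the 5 T1 libraries with a TMM factor under 0.7 and lines period medians. T3 libraries lie between 0.78 and 1.35 on the left, above all others, because the genes were chosen for it.

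Counted gene by gene, separation was less complete than the sum. All 8 T3 libraries lay above all T0 libraries for 54 members, with 2.6% of all genes past the filter doing so. They lay above all T1 libraries for 77 members (11.6% of all genes) and above all T2 libraries for 46 members (3.77%). For 21 members every T3 library exceeded all 29 other libraries (0.516%), with a median gap of 0.14 and a largest gap of 0.44 on the log2 scale. For 101 members at least 4 T3 libraries lay above every other library, and for 11 members none did. The single highest library belonged to T3 for 139 members, to T0 for 3, to T1 for 4 and to T2 for 4. The choice of members for a high T3 favoured all of these counts. For the counts of at least 4, of no T3 library and of the single highest library, shares of all genes were not taken.

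In the fits across all genes, calls were made with edgeR's quasi-likelihood test and needed a Benjamini-Hochberg adjusted p below 0.05 with a 1.3-fold or larger change. The rule used the T3 contrasts, so the following counts describe the choice. In T2:T3, 145 of 150 members were called higher in T3, with 22.5% of all genes tested called in that direction. In T1:T3 it was 147 members, with 32.9% of all genes, and in T0:T3 it was 141 members, with 10.4% of all genes. No member was called lower in T3 in any of these 3 comparisons, which share the T3 libraries.

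The comparisons among T0, T1 and T2 hold no T3 library and set the same genes side by side in untrained horses and in the canter and gallop periods. T0 is a group of untrained horses and not an earlier time point of training. A fall or rise from T0 means a level lower or higher than in that group. They are not wholly apart from the rule, which took the highest of these 3 medians. Relative to untrained horses, the members were mostly lower after the slow canter phase. In T0:T1, 66 members fell from T0 to T1 and 1 rose, while 29.2% of all 11544 genes tested were called higher in T0 and 28.9% higher in T1. The members' share of falls was therefore 44%, and their share of rises 0.67%. Their median log2 fold change was -0.58 and 122 of 150 had a negative value, beside a median of -0.05 over all genes tested. With each library left out in turn, 53 to 70 members fell. The count that rose was 3 without T0 replicate 1, 2 without T1 replicate 9, and 0 without T0 replicate 4 or 5 or T1 replicate 8. A fitted fall of more than 1 on the log2 scale was seen in 44 members and a fitted rise of that size in 2. The shares of all genes with such changes were not taken. Fold changes were wide in general, with quartiles of -0.74 and 0.69 over all genes tested and of -1.04 and -0.09 over the members.

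Leaving out the 5 T1 libraries with low TMM factors kept this direction. With 7 T1 libraries, 54 members fell and 5 rose, and 24.2% of all genes were called higher in T0 and 25.4% higher in T1. The members' median log2 fold change was then -0.32. The level of the members was -1.73, -0.995 and -0.38 (lowest, median, highest) in the 5 libraries and -1.12, -0.35 and 0.23 in the other 7, so the ranges overlapped. The part of low scaling factors in the T1 level was not otherwise tested.

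By the intense gallop phase the members stood closer to untrained horses. In T0:T2, 24 members fell from T0 to T2 and 1 rose, and 16.5% of all genes were called higher in T0 and 17% higher in T2. A share of 16% of the members fell, near that of all genes, while the share that rose was 0.67%. Both counts moved with single libraries: 37 members fell without T2 replicate 5, and with each other library left out 18 to 26 fell. The count that rose was 8 without T0 replicate 1, 5 without T2 replicate 4, 3 without T0 replicate 2, 2 without T2 replicate 7 or 11, and 0 without any one of T0 replicates 3, 4, 5 and 6 and T2 replicates 1, 5 and 8. The members' median log2 fold change was -0.14 with 96 of 150 negative, and that of all genes was 0.04.

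Between T1 and T2 the members leaned upwards, but few passed the test. In T1:T2, 19 members rose from T1 to T2, or 12.7%, with 11.2% of all genes called higher in T2. None of the members was called higher in T1, in which direction 20.8% of all genes were called. An unadjusted p below 0.05 in either direction was found for 52 members, or 34.7%, below the 48.9% of all genes. The members' median log2 fold change was 0.40 with 125 of 150 positive, beside 0.06 over all genes. The count of 19 depended on single libraries. It was 6 to 11 without any one of T1 replicates 1, 2, 3, 4, 9 and 11, and 29 to 46 without any one of T1 replicates 8, 10 and 12. It was 5 to 12 without any one of T2 replicates 4, 5, 6, 8, 9, 10 and 11, and 33 or 41 without T2 replicate 1 or 7. Without the 5 T1 libraries of low TMM factor, edgeR called 0 members and 0 of all genes tested in T1:T2. In that fit 6 members had an unadjusted p below 0.05, and the share of all genes was not taken. The members' median log2 fold change was then 0.17, beside 0.01 over all genes.

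**Figure D2:**
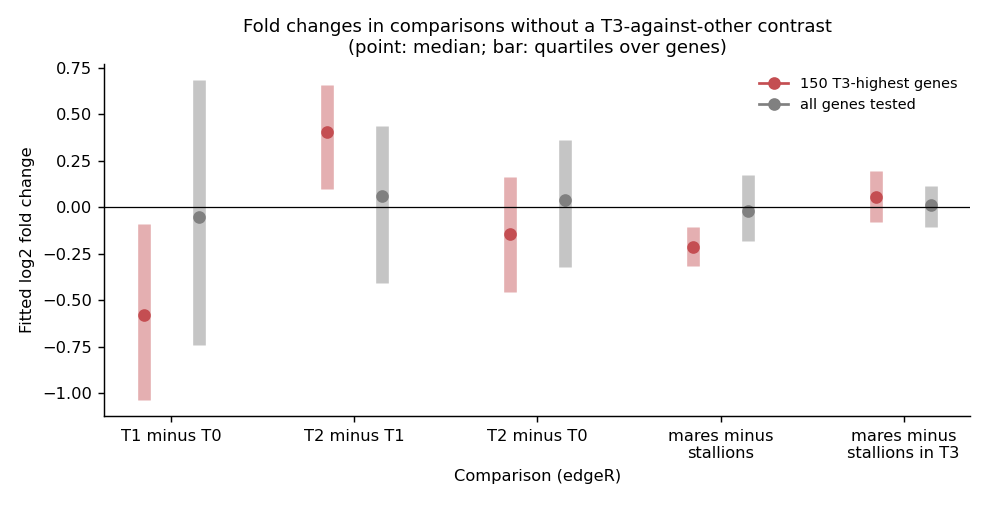
Fitted log2 fold changes of the 150 T3-highest genes (red) and of all genes tested (grey) in 5 comparisons that set no T3 library against another period; points are medians and bars quartiles over genes. The members' median is -0.58 for T1 minus T0, 0.40 for T2 minus T1 and -0.14 for T2 minus T0, while that of all genes stays between -0.05 and 0.06.

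Taken as medians per period, the usual order of the members below T3 placed T0 highest and T1 lowest. T0 was the highest of the other 3 periods for 91 members (60.7%), T2 for 47 and T1 for 12, compared with 41.6%, 15.9% and 42.5% of all genes above the level floor. T1 was the lowest for 101 members (67.3%), and for 43.9% of all genes. Among the trained horses, 122 members had a T1 median below their T2 median, and 51.6% of all genes did. Without the 5 T1 libraries of low TMM factor, T1 was lowest for 85 members and below T2 for 108. In that setting T1 lay below T2 for 48.7% of all genes above the level floor, and the share lowest in T1 was not taken.

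The members also varied together from library to library inside each period, a measure that the score did not use directly although it came from the same libraries. The median Pearson correlation between pairs of members was 0.58 over the 6 libraries of T0, 0.57 over the 12 of T1, 0.64 over the 11 of T2 and 0.39 over the 8 of T3. Over all pairs of the 9287 genes above the level floor the medians were 0.01, 0.02, -0.01 and 0.00. These are descriptions, since pairs share libraries, depth and scaling. The level of the members correlated with log2 library total at r = -0.95 over the 6 T0 libraries, 0.48 over the 12 of T1, 0.14 over the 11 of T2 and 0.15 over the 8 of T3. With the log2 TMM factor it correlated at -0.03, 0.62, 0.45 and -0.18 in that order, and the part of depth and scaling in the covariation was not tested. In T1 the median was 0.69 without the 5 libraries of low TMM factor.

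The members' median spread exceeded that of all genes in every period, T3 included. Their median SD of log2 CPM was 0.40 for T0, 0.71 for T1, 0.61 for T2 and 0.37 for T3, and that of all genes above the floor was 0.21, 0.59, 0.32 and 0.24. Within T2, the level lay at -1.12 in replicate 7 and at 0.72 in replicate 5. In T3 the SD of single members ran from 0.14 to 3.15, and 4 members had an SD over 1.

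**Figure D3:**
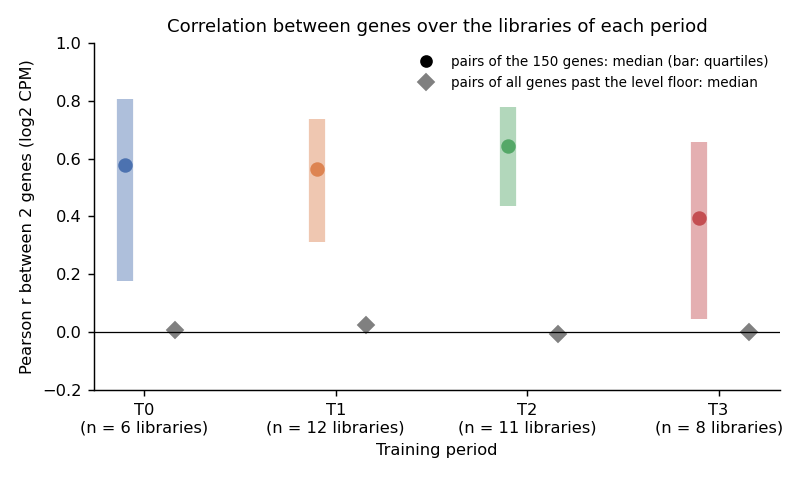
Pearson correlation of log2 CPM between pairs of genes over the libraries of each period. Coloured points and bars are the median and quartiles over pairs of the 150 T3-highest genes, with medians from 0.39 in T3 to 0.64 in T2, and grey diamonds are medians over all genes above the level floor, which lie between -0.01 and 0.02.

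To show how far single members followed the rest, each gene's deviations from its period means were correlated with the mean deviation of the members (of the other members, for a member) over 37 libraries. The median was 0.73 for members, with 93 of 150 above 0.7 and 2 below 0. The 346 genes that met the score but fell beyond the limit of 150 had a median of 0.70, with 171 above 0.7. All 9137 genes above the level floor that were no members had a median of 0.10, and 4.08% of them were above 0.7.

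Clustering the members by correlation over the 8 T3 libraries, a division made after the values were seen, placed 84 members in a first set and 62 in a second, leaving 4. The median correlation in T3 was 0.63 inside the first set, 0.62 inside the second and 0.15 between them, all of which follow from the clustering and describe the division. In the other periods the same sets were correlated with each other at a median of 0.58 for T0 and of 0.57 for both T1 and T2. For T0, T1 and T2 the median was 0.50, 0.52 and 0.73 inside the first set and 0.70, 0.67 and 0.65 inside the second. In T0 and T1 the sets were thus no less correlated with each other than the first was within itself.

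The T3 levels of the sets describe the same division. The level of the first set was 0.67 in T3 replicate 2 and 0.82 in replicate 1, and 1.21 to 1.56 in the other 6. The level of the second set was 0.42 in T3 replicate 5 and 0.58 in replicate 7, and 0.88 to 1.41 in the other 6. Each of these pairs held 1 mare and 1 stallion.

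Levels outside T3 differed as well. In the first set the level was -0.02, 0.31 and 0.55 in T0 (lowest, median, highest), -1.66, -0.65 and 0.00 in T1 and -1.44, -0.24 and 0.63 in T2. In the second set it was -0.66, -0.30 and 0.25 in T0, -1.84, -0.29 and 0.56 in T1 and -0.72, -0.09 and 0.84 in T2. The first set was thus higher in untrained than in most trained libraries before T3, whereas the second showed T0 within the range of T1 and T2. The T3 libraries lay above all others in the first set and overlapped T1 and T2 libraries in the second.

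The calls without T3 libraries fell mainly in the first set. In T0:T1, 61 of its 84 members fell and 0 rose, against 4 falls and 1 rise among the 62 members of the second set, where 29.2% of all genes were called higher in T0. In T0:T2, 23 members of the first set fell and 0 rose, against 1 fall and 1 rise in the second, where 16.5% of all genes were called higher in T0. Of the rises in T1:T2, 16 belonged to the first set and 2 to the second, with 11.2% of all genes called higher in T2, and 0 remained without the 5 T1 libraries of low TMM factor. The median log2 fold changes for T0:T1 were -1.004 and -0.16, and for T0:T2 -0.42 and 0.20. T0 was the highest period below T3 for 74 members of the first set and 15 of the second, and T2 for 7 and 38. The difference between the sets was not tested, since they were drawn from these values.

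**Figure D4:**
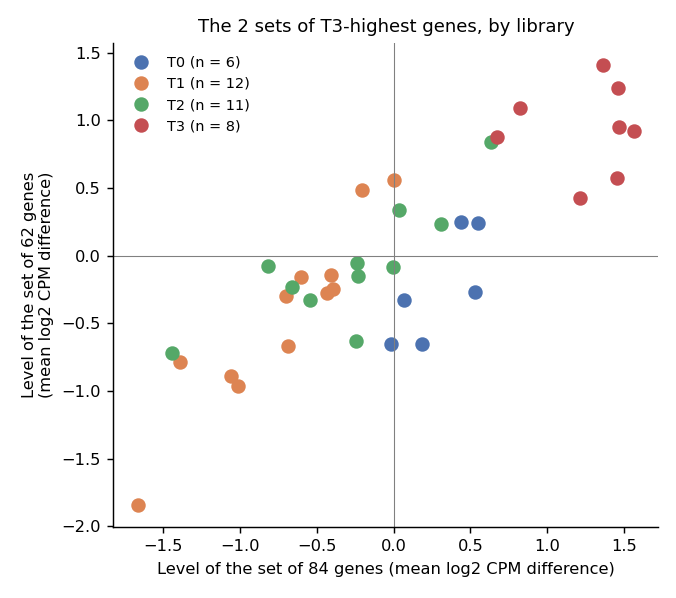
Level of the first set (84 genes, horizontal axis) and of the second set (62 genes, vertical axis) in each of 37 libraries, as mean log2 CPM differences from the all-library mean, coloured by period. T3 libraries lie to the right of all others on the first set's axis, at 0.67 to 1.56, while on the second set's axis, at 0.42 to 1.41, they overlap some T1 and T2 libraries.

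No member was called between the sexes. With period as a term over 37 libraries, 0 members were called higher in mares or in stallions by edgeR or by DESeq2. Of all genes, edgeR called 0.0166% in each direction. An unadjusted p below 0.05 was found for 21 members, or 14%, beside 16.7% of all genes. The fitted values leaned to stallions, with a median log2 fold change of -0.21 for mares minus stallions and 133 of 150 negative, beside -0.02 over all genes. In T1 the level was -1.73, -1.004 and -0.38 in mares and -0.67, -0.35 and 0.23 in stallions, and 4 of the 5 libraries of low TMM factor were of mares, whose part in this lean was not tested. Within T3, 0 members and 0% of all genes were called in either direction by edgeR, and DESeq2 called 0 members. An unadjusted p below 0.05 was found for 2 members, or 1.33%, beside 1.95% of all genes. The level in T3 was 0.95, 1.18 and 1.35 in mares and 0.78, 1.07 and 1.34 in stallions, so the sexes overlapped.

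The highest score, 3.17, belonged to ENSECAG00000002739, and its values were uneven. It measured 7.86, 48.2 and 83.5 CPM (lowest, median and highest) in T3, 0.00, 2.97 and 6.07 CPM in T1 and 0.28, 5.12 and 16.4 CPM in T2. All T3 libraries exceeded all T1 libraries. In T0 the 6 libraries read 0.47, 32.3, 0.65, 15.9, 0.79 and 121 CPM, so untrained horses fell into low and high values and the highest library of all was T0 replicate 6. The gene fell from T0 to T1 by 3.26 on the log2 scale (SE 0.79, edgeR adjusted p = 0.0022), and it was not called in T0:T3. Its medians lay much closer than this fitted fall, at a log2 CPM of 1.98 in T0 and 1.64 in T1. T0 replicates 1, 3 and 5 read below the T1 median.

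The second highest score, 1.88, belonged to ENSECAG00000022371, the single member called higher in both T1 and T2 than in T0, with calls that single libraries decided. Its CPM in T0 replicates 1 to 6 was 3.03, 4.25, 6.42, 2.04, 0.22 and 4.75. It then spread over 0.00, 12.3 and 76.8 CPM in T1, 0.83, 8.96 and 81.4 CPM in T2 and 2.57, 45.9 and 100.1 CPM in T3. The untrained libraries were uniformly low, while each trained period held low and high libraries that overlapped. The log2 fold change was 2.25 in T0:T1 (SE 0.87, edgeR adjusted p = 0.032) and 2.51 in T0:T2 (SE 0.93, edgeR adjusted p = 0.04). In T0:T1 the call was lost without T0 replicate 4, T0 replicate 5 or T1 replicate 8. In T0:T2 it was lost with sex as a term, and without any one of T0 replicates 3, 4, 5 and 6 and T2 replicates 1, 5 and 8.

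One member, ENSECAG00000000207, was picked out after its values were seen because its medians and its fitted means disagreed. Its score from medians was 0.95, yet its fitted log2 fold change was -0.79 in T2:T3 (SE 1.24), -3.14 in T1:T3 (SE 1.68) and -0.44 in T0:T3 (SE 1.29), the only member with negative values there. Most libraries read under 10 CPM in every period, and a few read far more. T1 replicate 3 reached 2628 CPM and T1 replicate 4 reached 698 CPM, while T3 replicates 4, 5 and 7 read 112, 75.4 and 54.7 CPM and the other T3 libraries 0.35 to 5.45 CPM. Counts of near-identical gene copies could be divided between them by the authors' counting, and whether this gene has such a copy was not analysed here.

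The study printed 74 identifiers with its own results, all of which passed the filter, and the rule kept them out of the set. These names were chosen by the study on these libraries. Of the 74, 8 met the score and level, and 7 of the 8 have a symbol. They are listed because their function is known, and the score that chose them fixed T3 as their highest period. Without any one of T3 replicates 3, 5, 6 and 7, 3 of the 8 met the score, and without any one of the other 4 T3 libraries all 8 did. NHSL2, a relative of the actin-remodelling protein NHS, had a score of 1.19, which ranked 29 among all 9287 genes. NCOA2, a coactivator of nuclear receptors including the glucocorticoid receptor, had 0.68. The others were NFAT5, the transcription factor of the osmotic stress response (0.63), FOXN2, a forkhead transcription factor (0.58), HIPK1, a nuclear protein kinase (0.58), RICTOR, a core subunit of mTOR complex 2 (0.57), and ZNF618, a zinc finger protein (0.56). The score of NFAT5 was 0.26 without any one of T3 replicates 3, 5, 6 and 7 and 1.005 without any one of the other 4.

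NHSL2 read 19.3, 22.6 and 29.9 CPM (lowest, median, highest) in T0, 3.84, 11.02 and 20.04 CPM in T1, 6.07, 19.6 and 29.9 CPM in T2 and 31.5, 52.1 and 72.6 CPM in T3. Its T3 libraries lay above all 29 others. It fell from T0 to T1 by 1.03 on the log2 scale (SE 0.24, edgeR adjusted p = 0.0018) and rose from T1 to T2 by 0.69 (SE 0.24, edgeR adjusted p = 0.03). The rise from T1 to T2 was not called without the 5 T1 libraries of low TMM factor, in which fit 0 genes were called.

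NCOA2 read 63.8, 81.7 and 87.7 CPM in T0, 14.1, 29.9 and 41.8 CPM in T1, 13.9, 41.8 and 65.7 CPM in T2 and 74.5, 131 and 165 CPM in T3. The T3 and T0 ranges overlapped, through T3 replicate 2 at 74.5 CPM, and both lay mostly above T1 and T2. Its fall from T0 was 1.44 on the log2 scale at T1 (SE 0.21, edgeR adjusted p = 4.2e-05), and at T2 the log2 fold change from T0 was -0.97 (SE 0.23, edgeR adjusted p = 0.0047).

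For the other 5 genes with a symbol, the T0 median lay well above those of T1 and T2. All 5 fell from T0 to both T1 and T2, with fitted log2 fold changes of -0.86 for ZNF618 to -1.94 for HIPK1 at T1 and of -0.87 for ZNF618 to -1.81 for NFAT5 at T2. NFAT5, for example, had a T3 median of 24.4 CPM, with 15.2 CPM for T0, 4.00 for T1 and 3.72 for T2. None of the 5 passed the T0:T3 test, in which their fitted log2 fold changes were 0.37 to 0.72. The study, which used DESeq2, reported all 5 as significantly higher in T3 than in T0. The reason for this difference was not tested. Of these genes the study measured FOXN2 alone by qPCR. It found no significant difference between periods there, though it described a trend like that of its RNA-seq.

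Within periods, the printed genes closest to the members over 37 libraries were NHSL2 (r = 0.89) and NCOA2 (r = 0.87). TBL1X, a subunit of a nuclear receptor corepressor complex (r = 0.75), TRAPPC10, a vesicle transport subunit (r = 0.74), and TAF1, the largest subunit of the basal transcription factor TFIID (r = 0.69), followed among those with a symbol. HIPK1 and RICTOR, whose score was past the minimum, had r of 0.39 and 0.37.

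**Figure D5:**
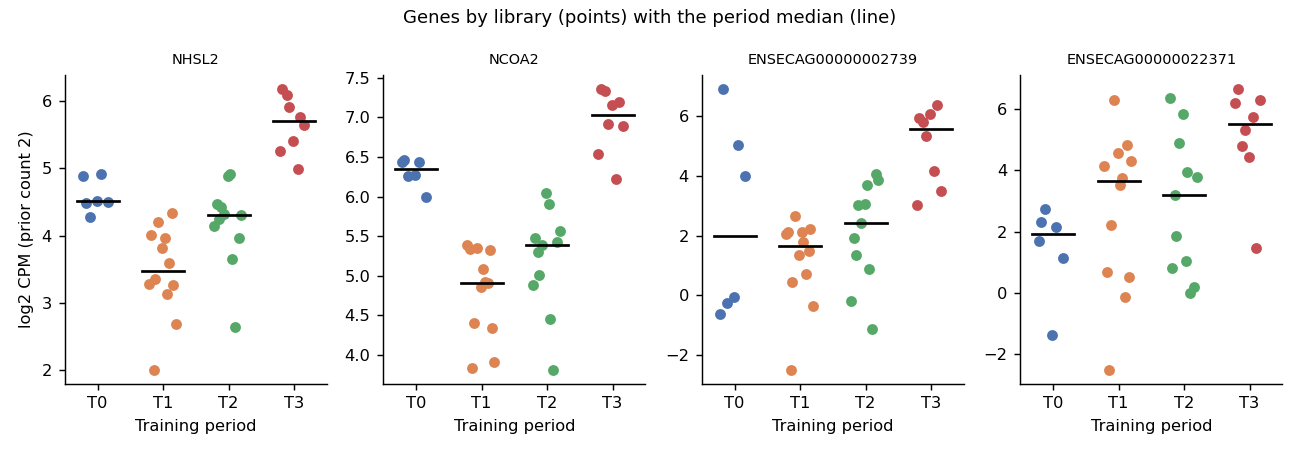
Log2 CPM of 2 genes named by the study and of the 2 members with the highest scores, by training period; points are libraries and lines period medians. NHSL2 and NCOA2 show T3 highest and T1 lowest by median. Inside a period they ran, for example, from 2.01 to 4.34 (NHSL2 in T1) and from 3.81 to 6.04 (NCOA2 in T2). ENSECAG00000002739 and ENSECAG00000022371 spread further, for example from -0.63 to 6.92 (the first in T0) and from -2.50 to 6.27 (the second in T1).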

How the data were processed

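Per the labels and the study's methods, blood RNA of 37 samples was sequenced from unstranded libraries, so overlapping genes cannot be told apart. The authors trimmed reads with Flexbar, aligned them to EquCab2 with STAR and counted Ensembl genes with RSEM. The deposited table holds whole-number counts per gene without normalization, and 3 smaller tables of the same counts were not used.

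Genes were filtered with filterByExpr and scaled by TMM in edgeR 4.0.16 (R 4.3.3), and log2 CPM used a prior count of 2. Members and lists were chosen with earlier results of these data known. Periods were compared in pairs by the quasi-likelihood F-test with Benjamini-Hochberg adjustment over all genes, after a test on simulated data. Standard errors were taken from the fold change and the root of its F statistic. Total counts of 3810631 to 14932603 per library set the precision, and p-values measure the spread between libraries, some of which share a horse.

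The naming rule asked for members with a symbol. As none could be matched, at most 2 identifiers were to be given, and ENSECAG00000000207 was added after its values were seen. The genes named by the study were matched by its printed identifiers and also chosen after their values were seen. The 24 fixed lists of 704 symbols (blood cell markers and pathways) gave no values for the same reason. Alternatives were DESeq2 1.42.0, RLE scaling, no filter, sex as a term, a replicate block, single libraries left out and, added after seeing the data, leaving out 5 T1 libraries. The study reports sequencing pools and mapping rates by period, under a running number that the labels do not carry. Its pools were not spread alike over the periods, and a pool held only T1 and T2 samples. In its listing, every T1 sample and most T2 samples had a lower share of uniquely mapped reads than any T0 or T3 sample. Pool and mapping rate were not analysed here, and their part in any result was not tested.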

Additional observations from a re-analysis of the deposited data

Results flagged for a closer look

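For ENSECAG00000022371, the member with the second highest score, T3 replicate 7 stood far below the other 7 T3 libraries. Its log2 CPM was 1.46 and the nearest library read 4.43, a gap that took 0.57 of the whole range of the T3 group. The same library was not low for the members as a whole, with a level of 1.09. In all, 24 groups of values in T0 and T3 were examined in this way and 1 was flagged, where chance flags about 5% of groups.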

How the results depend on the processing

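The set of 150 was recovered as 148 genes with RLE scaling, 120 with means in place of medians, 119 with a floor of 3 on mean log2 CPM, 141 without the 5 T1 libraries of low TMM factor and 133 to 150 with each library left out. The count of 19 members called in T1:T2 moved to 31 with DESeq2, 9 with no filter on low counts, 39 with sex as a term, 0 without the 5 T1 libraries, and 5 to 46 with each library left out. The cause was not tested. In the other comparisons the totals over both directions stayed within 1.5 times their values under the alternatives run, with 55 to 71 members in T0:T1 and 20 to 37 in T0:T2 when each library was left out. The counts by direction did not: members that rose in T0:T2 went from 1 to 3 with DESeq2, 0 with sex as a term and 0 to 8 with each library left out, those that fell there were 24 and became 18 to 37, and those that rose in T0:T1 from 1 to 5 without the 5 T1 libraries and 0 to 3 with each library left out. Over settings other than single libraries left out, 54 values stayed within these limits, 5 moved and 0 reversed.

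Replicate numbers do not pair the samples. Same-numbered libraries had deviations correlated at -0.24 to 0.46 in T1:T2, with 7 of 11 pairs above 0.1, and no pair of periods had all its pairs above 0.1. With the number as a replicate block, 43 members were called in T1:T2, 80 in T0:T1, 24 in T0:T2, 139 in T2:T3, 145 in T1:T3 and 126 in T0:T3. T1 replicate 11, with 3810631 counts, limits what low members show in T1.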

Other observations

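Some genes printed by the study ran opposite to the members inside periods. Over 37 libraries, deviations from the period means correlated with those of the members at r = -0.65 for APOBEC3Z2E, a cytidine deaminase of the antiviral APOBEC3 family, at r = -0.57 for ANP32A, a histone-binding inhibitor of protein phosphatases, and at r = -0.54 for LOC100059314. In the single periods the r of APOBEC3Z2E was 0.14 over the 6 T0 libraries, -0.71 over the 12 of T1, -0.72 over the 11 of T2 and -0.50 over the 8 of T3. Its lowest, median and highest values were 49.1, 60.0 and 73.3 CPM in T0, 69.3, 112 and 218 CPM in T1, 47.1, 69.3 and 143 CPM in T2 and 27.8, 37.6 and 48.8 CPM in T3. ANP32A had its highest median, 363 CPM, at T1 and its lowest, 127 CPM, at T3, with 167 CPM for T0 and 187 CPM for T2. These genes were picked after their values were seen, and the correlations are descriptions over libraries that share depth and scaling. By the same measure over 37 libraries, 4148 of the 9137 non-members above the level floor had r below 0, the lowest being -0.88.

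Within T3, the highest value among the 8 libraries was in replicate 8 for 48 members, in replicate 4 for 43 and in replicate 6 for 29, with 2 to 10 members in each of the other 5.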
